A study of Homo sapiens with 6 samples.

Results

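The hyaluronan genes described here are the 3 hyaluronan synthases (HAS1, HAS2, HAS3), 5 genes of hyaluronan breakdown (HYAL1, HYAL2, HYAL3, KIAA1199, TMEM2) and 2 hyaluronan receptors (CD44, HMMR). They are the 10 rows with these symbols among the 23346 genes of the count table, and they were chosen by symbol but selected on the counts of this same contrast, with the difference between BNC2 siRNA and NC siRNA in view, so their levels and differences are a description and carry no test. BT549 is an established mesenchymal breast cancer cell line, here of WT genotype. Cells received 20 nM of a negative control (NC) siRNA or of BNC2 siRNA, an equal mix of 3 siRNAs to basonuclin-2, a zinc finger protein, and the medium was changed after 6 h. RNA was taken on day 6 from 3 libraries of each group, prepared as biological replicates of this 1 line. The GEO labels give Lipofectamine 2000 as the transfection reagent and the methods give RNAiMax for siRNAs.

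Hyaluronan is a long unbranched sugar polymer of the extracellular matrix. HAS enzymes sit in the plasma membrane, join UDP-glucuronic acid and UDP-N-acetylglucosamine in turn, and push the growing chain out of the cell. HYAL2 at the cell surface and HYAL1 in the lysosome cut the chain, while KIAA1199 (current symbol CEMIP) and TMEM2 (current symbol CEMIP2) take part in hyaluronan breakdown outside the cell or at its surface. CD44 is the main surface receptor in mesenchymal and tumour cells, and HMMR (RHAMM) binds hyaluronan but also acts at the mitotic spindle.

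The guide strands of the siRNAs are shown first because they define the groups, with the seed (bases 2 to 8 from the 5′ end) in capitals.
BNC2 siRNA 1: uUUACACUgaucacaagucct
BNC2 siRNA 2: uUGUCAUAgaaugucuucctt
BNC2 siRNA 3: uUUCGGCUucguacagaggtt
NC siRNA: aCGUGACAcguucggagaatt
On GRCh37, the 19 bases paired by guide 1 lie at chr9:16583000-16583018, in coding exon 4 of 7 of the canonical BNC2 transcript (minus strand). Guide 2 pairs in exon 6, at chr9:16436834-16436852, and guide 3 in exon 7, at chr9:16419045-16419063, both coding. None of the 4 guides had a full 19-base match in the canonical transcript of any of the 10 hyaluronan genes. The 7 bases complementary to a seed were absent as well from the 3′ UTRs of all 10 genes for all 4 guides. Among 11539 genes with a 3′ UTR, they occurred in 13.6% for guide 1, 10.1% for guide 2, 2.24% for guide 3 and 3.18% for the NC guide.

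The libraries held 16093978 to 18246254 counts, and levels are given as CPM, a gene's counts in a library of 1000000 counts after TMM scaling. BNC2 itself stood at 65.6, 51.4 and 58.5 CPM in the control libraries and 35.4, 36.5 and 41.5 after BNC2 siRNA, 64.6% of the NC mean (log2 fold change -0.63, SE 0.09, edgeR quasi-likelihood adjusted p = 8.21e-06), a partial knockdown at the RNA level. The mesenchymal markers VIM, FN1, CDH2 and ZEB1 were all called higher, as were 36.6% of all genes tested, with their summed level moving from 4026 to 4112 CPM in NC siRNA to 4842 to 5072 CPM in BNC2 siRNA. The 5 epithelial markers summed to 3.67 to 5.63 CPM and to 0.338 to 0.697 CPM, nearly all of it KRT18, while EPCAM and ESRP1 had no count and CDH1 at most 0.0563 CPM in a library. Immune markers (PTPRC, CD14) summed to 1.74 to 2.19 CPM and 0.872 to 1.02 CPM, and endothelial markers (PECAM1, CDH5) to at most 0.407 CPM. The part of these shifts in the differences below was not tested. In bulk RNA, fewer cells expressing a gene and less RNA of it per cell cannot be told apart.

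Hyaluronan gene expression differed between the groups in both directions. The breakdown genes KIAA1199 and TMEM2 and the synthase HAS3 were lower after BNC2 siRNA, whereas HAS2, HYAL2, HYAL3, CD44 and HMMR were higher. Of the 10 genes, 8 passed the filter of more than 1 CPM in at least 3 of 6 libraries, and 5 of these were past an adjusted p of 0.05 in the higher direction and 3 in the lower (edgeR quasi-likelihood test, Benjamini-Hochberg adjustment over 12186 genes). The background was high, since 72.9% of all genes tested were past that threshold, 36.6% higher and 36.2% lower. The NC and BNC2 siRNA libraries did not overlap for any of the 8 genes, and 74.9% of all genes tested showed such separation. Because this contrast was in view when the genes were chosen, nothing is read from these counts. The median log2 fold change over all genes tested was 0.0014.

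**Figure D1:**
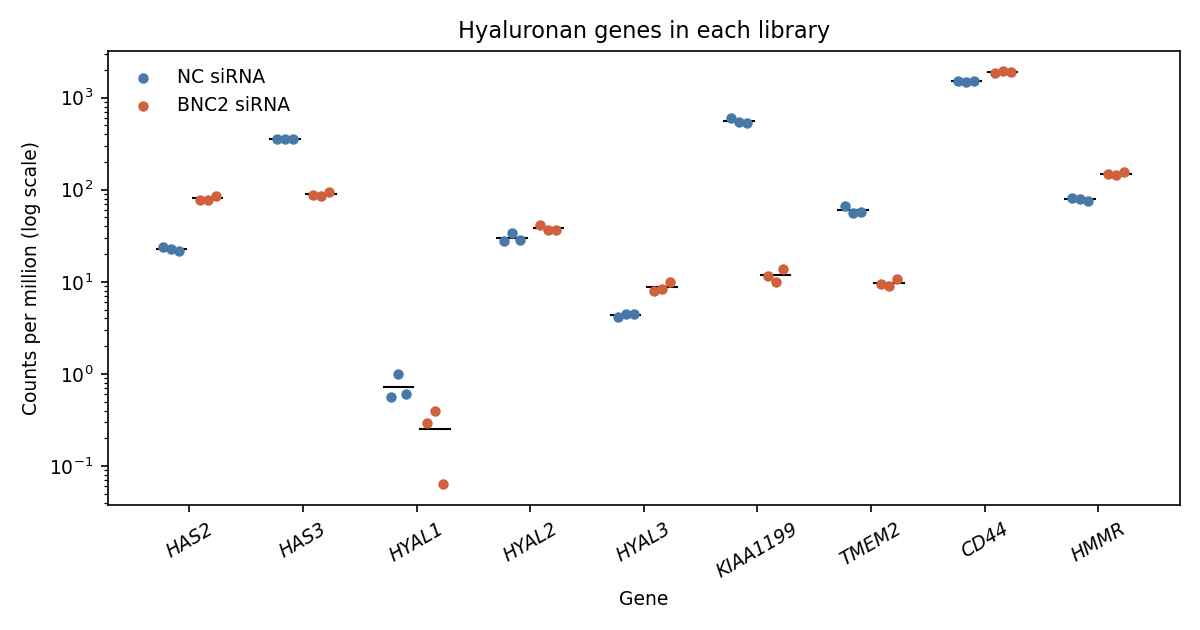
CPM (log axis) of 9 hyaluronan genes in each of the 6 libraries, blue for NC siRNA and orange for BNC2 siRNA, with the group mean as a bar. HAS1 had 0 counts and cannot be drawn on a log axis. KIAA1199 moved from 527 to 608 CPM down to 9.98 to 13.7 CPM.

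Among the synthases, HAS3, which makes shorter chains than the other two, was the main form in control cells. Its level was 357.7, 357.2 and 355.1 CPM in the control libraries and 88.2, 85.9 and 95.2 CPM after BNC2 siRNA. All BNC2 siRNA libraries lay below all NC siRNA libraries, with a log2 fold change of -1.99 (SE 0.06, 95% interval -2.11 to -1.87), or 3.97-fold lower. HAS2, which makes long chains and is the synthase most often linked to invasive mesenchymal cells, moved the other way. Its level was 24.1, 23.0 and 21.7 CPM in control cells and 78.2, 78.0 and 85.9 CPM in BNC2 siRNA. The log2 fold change was 1.81 (SE 0.07, 95% interval 1.66 to 1.97), or 3.51-fold higher, without overlap. HAS1 had 0 counts in all 6 libraries, and a count of 0 allows up to 3 counts (counting error only). By library, 3 counts are 0.164 to 0.186 per 1000000 counts, without the TMM scaling used for CPM elsewhere.

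The synthases changed in make-up as well as in amount. Summed over HAS1, HAS2 and HAS3, their level was 380 ± 2.59 CPM (SD, n = 3) in NC siRNA and 170.5 ± 9.32 CPM in BNC2 siRNA, 44.9% of the control. To compare levels between genes, CPM was divided by the length of the canonical GENCODE transcript in kb. On that scale HAS2 was 5.70% to 6.25% of the synthase level in the control libraries and 46.7% to 47.3% after BNC2 siRNA. HAS3 thus exceeded HAS2 by a wide margin in control cells (85.1 ± 0.336 against 5.41 ± 0.287 CPM per kb). After BNC2 siRNA they stood close together, at 21.4 ± 1.16 and 19.04 ± 1.07 CPM per kb, though the lowest HAS3 library (20.5) was still above the highest HAS2 library (20.3).

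HAS2 and HAS3 each share ground with a gene on the other strand, which the stranded counts keep apart. HAS2, on the minus strand of chromosome 8, is crossed at its start by the antisense RNA HAS2-AS1. HAS2-AS1 was at 3.15, 3.81 and 3.55 CPM in control cells and 3.02, 2.82 and 3.31 CPM in BNC2 siRNA. These groups overlap, and the log2 fold change of -0.20 (SE 0.18) was not past the threshold (edgeR adjusted p = 0.318), while HAS2 itself was higher. HAS2 had 16, 15 and 16 opposite-strand counts in the control libraries and 15, 14 and 13 after BNC2 siRNA, beside 361 to 429 and 1346 to 1384 sense counts. The 3′ end of HAS3 (GRCh37 chr16:69139556-69152622, plus strand) runs into CHTF8 on the minus strand, whose 3′ end lies at 69151913 and which was higher after BNC2 siRNA (86.8 ± 6.33 against 115.8 ± 1.18 CPM, log2 fold change 0.42, SE 0.06, edgeR adjusted p = 1.75e-05).

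**Figure D2:**
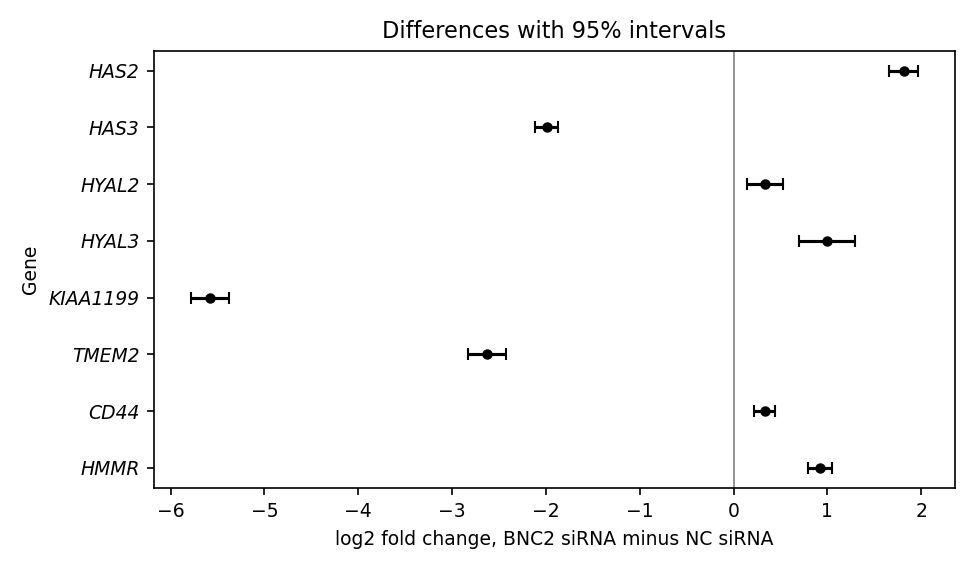
log2 fold change of BNC2 siRNA over NC siRNA for the 8 hyaluronan genes tested, with 95% intervals from the edgeR quasi-likelihood fit. KIAA1199 (-5.58), TMEM2 (-2.63) and HAS3 (-1.99) lie left of 0 and the other 5 genes right of it.

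KIAA1199 showed the widest difference of the 10 genes. Its product binds hyaluronan and is required for its depolymerisation in skin and synovial fibroblasts. KIAA1199 (GRCh37 chr15:81071684-81244117, plus strand) was at 608, 544 and 527 CPM in the control libraries and 11.5, 9.98 and 13.7 CPM after BNC2 siRNA. The groups were far apart, with a log2 fold change of -5.58 (SE 0.10, 95% interval -5.79 to -5.38), or 47.9-fold lower. It ranked 22 among all genes tested, ordered from the most negative log2 fold change. Its level per kb in control cells lay at the 92.1 percentile of the tested genes with a GENCODE transcript length, and at the 15.8 percentile after BNC2 siRNA. The lower group rests on 198, 177 and 215 counts, against 8763 to 10806 in the control libraries.

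TMEM2, a transmembrane relative of KIAA1199 implicated in hyaluronan breakdown at the cell surface, was lower too. Its level (GRCh37 chr9:74298282-74431606, minus strand) was 67.0, 56.3 and 57.1 CPM in control cells and 9.59, 9.07 and 10.6 CPM in BNC2 siRNA. No BNC2 siRNA library reached the NC siRNA range, and the log2 fold change was -2.63 (SE 0.10, 95% interval -2.83 to -2.42), or 6.17-fold lower. Together KIAA1199 and TMEM2 were at 620 ± 48.5 CPM (SD, n = 3) in control cells and 21.5 ± 2.65 CPM after BNC2 siRNA, 3.47% of the control.

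The 3 HYAL genes lie side by side on the minus strand of chromosome 3 and differed much less. HYAL2 (GRCh37 chr3:50355221-50360213), a GPI-anchored enzyme that cuts long chains at the cell surface, was at 27.9, 34.0 and 28.7 CPM in control cells and 41.4, 36.8 and 36.2 CPM in BNC2 siRNA. The BNC2 siRNA libraries were all higher, but the nearest pair, 34.0 and 36.2 CPM, was close, and the log2 fold change was 0.34 (SE 0.09). HYAL3 (chr3:50330262-50336836), whose own enzyme activity is weak, was at 4.16, 4.42 and 4.45 CPM in control cells and 7.96, 8.29 and 9.86 CPM in BNC2 siRNA. Its log2 fold change was 1.00 (SE 0.14) without overlap. NAT6 (current symbol NAA80), an N-acetyltransferase gene on the same strand at chr3:50333833-50336847, overlaps HYAL3, and reads that fall in exons of both are counted for neither. NAT6 was higher by a similar amount, 11.5 ± 0.357 CPM in control cells and 21.3 ± 1.41 CPM in BNC2 siRNA (log2 fold change 0.89, SE 0.10, edgeR adjusted p = 3.27e-07), and the 2 rows are uncertain where the genes share sequence. By their GENCODE bounds, HYAL3 also meets IFRD2 (chr3:50325163-50330349) and HYAL2 meets TUSC2 (chr3:50357458-50365682) on the same strand, so the HYAL2 row carries the same limit wherever exons of the annotation used for counting overlap.

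HYAL1 (chr3:50337321-50349812), the lysosomal enzyme, was almost silent and was left out by the filter. It had 10, 18 and 10 counts in NC siRNA and 5, 7 and 1 in BNC2 siRNA. Without the filter, its log2 fold change was -1.45 (SE 0.56), on 38 and 13 counts in all. HYAL1 also had 16, 18 and 17 opposite-strand counts in NC siRNA and 14, 19 and 16 in BNC2 siRNA, no fewer than on its own strand in any library.

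The make-up of the breakdown genes differed between the groups. HYAL1, HYAL2 and HYAL3 together were at 35.3 ± 3.66 CPM in control cells and 47.1 ± 2.26 CPM in BNC2 siRNA, 133.5% of the control. All 5 breakdown genes summed to 655 ± 46.9 and 68.6 ± 3.50 CPM, 10.5% of the control. Per kb of transcript, KIAA1199 was 71.1% to 74.6% of the 5-gene level in NC siRNA and 5.03% to 6.62% in BNC2 siRNA. HYAL2 took the first place, with 13.4% to 17.4% in NC siRNA and 68.4% to 74.6% in BNC2 siRNA. These are shares of RNA and say nothing of enzyme activity.

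**Figure D3:**
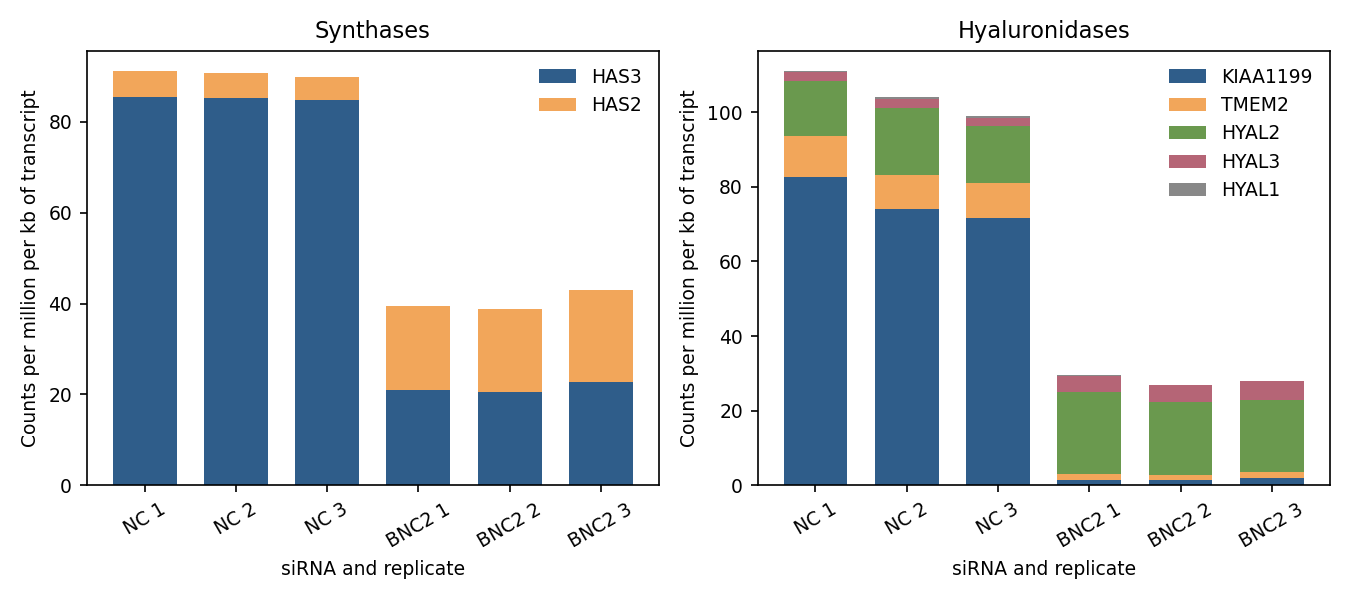
CPM per kb of canonical transcript in each library, stacked for the synthases (left) and the 5 breakdown genes (right). HAS3 and KIAA1199 fill most of the control bars, whereas in the BNC2 siRNA bars HAS2 is 46.7% to 47.3% of the synthases and HYAL2 68.4% to 74.6% of the breakdown genes.

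Of the receptors, CD44 was the most abundant hyaluronan gene in every library. CD44 (GRCh37 chr11:35160429-35253949, plus strand) was at 1534, 1475 and 1521 CPM in control cells and 1849, 1930 and 1923 CPM in BNC2 siRNA. The groups did not overlap, but the difference was small, with a log2 fold change of 0.33 (SE 0.05, 95% interval 0.22 to 0.44), or 1.26-fold higher. CD44 is spliced into standard and variant forms, which gene-level counts do not separate. HMMR (GRCh37 chr5:162887209-162918947, plus strand) was at 82.1, 79.6 and 75.5 CPM in control cells and 149, 146 and 156 CPM in BNC2 siRNA. All BNC2 siRNA libraries were higher, and the log2 fold change was 0.92 (SE 0.06, 95% interval 0.80 to 1.05), or 1.90-fold higher. Counts from the opposite strand were few for both, at most 133 for CD44 and 8 for HMMR.

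The order of the levels per kb changed below CD44. In NC siRNA the order was CD44 (278 ± 5.67 CPM per kb), HAS3 (85.1), KIAA1199 (76.1), HMMR (26.2), HYAL2 (16.1), TMEM2 (9.78), HAS2 (5.41), HYAL3 (2.31), HYAL1 (0.356) and HAS1 (0), with no overlap between neighbours. In BNC2 siRNA it was CD44 (350.0 ± 8.22), HMMR (49.8), HAS3 (21.4), HYAL2 (20.3), HAS2 (19.04), HYAL3 (4.63), KIAA1199 (1.59), TMEM2 (1.59), HYAL1 (0.123) and HAS1 (0). In that order HAS3 and HYAL2, HYAL2 and HAS2, and KIAA1199 and TMEM2 overlapped. The lengths are those of canonical transcripts, so the order of genes with several isoforms, such as CD44, depends on that choice.

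Among the genes whose log2 CPM was most like that of KIAA1199 over the 6 libraries were ANKRD10, DNAJB6, HAS3 and CTDSPL, with Pearson r of 0.9999, 0.9998, 0.9998 and 0.9997. HAS3 was the 1 hyaluronan gene among them. The 6 libraries form 2 groups far apart for KIAA1199, and 630 of the 12186 genes reached an r of 0.99, so the order among them turns on small differences. ANKRD10 was at 112 CPM in control cells and 49.5 CPM after BNC2 siRNA, a log2 fold change of -1.18 (SE 0.06).

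The promoters of the 3 genes called lower are shown, and that of HMMR because it is set beside mitotic genes. A lower call was shared by 36.2% of all genes tested, and shared control of the 3 genes was not tested. RefSeq promoters (GRCh38.p14) were matched by current symbol for 9 of the 10 genes, all but HAS2. Each window is the 250 bases before the start on the gene's strand, in lower case, with motif matches on either strand in capitals. The motifs searched were the TATA box (TATAAA), AP-1 (TGANTCA), the cell cycle CHR element (TTTGAA), the CCAAT box (CCAAT), the E-box (CACGTG), the TEAD motif (CATTCC) and the kappaB motif, and they were chosen after these promoters had been seen.
KIAA1199, chr15:80779120-80779369, plus strand: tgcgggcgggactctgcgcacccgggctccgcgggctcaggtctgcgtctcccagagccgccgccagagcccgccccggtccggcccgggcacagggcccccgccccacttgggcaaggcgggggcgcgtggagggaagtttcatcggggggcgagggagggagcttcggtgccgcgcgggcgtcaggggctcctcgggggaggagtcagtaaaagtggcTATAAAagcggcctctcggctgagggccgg
TMEM2, chr9:71768514-71768763, minus strand: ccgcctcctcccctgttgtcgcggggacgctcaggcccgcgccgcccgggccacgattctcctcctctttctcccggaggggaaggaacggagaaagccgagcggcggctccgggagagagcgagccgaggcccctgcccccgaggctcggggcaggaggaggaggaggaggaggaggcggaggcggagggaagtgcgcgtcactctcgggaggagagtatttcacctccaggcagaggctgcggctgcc
HAS3, chr16:69107290-69107539, plus strand: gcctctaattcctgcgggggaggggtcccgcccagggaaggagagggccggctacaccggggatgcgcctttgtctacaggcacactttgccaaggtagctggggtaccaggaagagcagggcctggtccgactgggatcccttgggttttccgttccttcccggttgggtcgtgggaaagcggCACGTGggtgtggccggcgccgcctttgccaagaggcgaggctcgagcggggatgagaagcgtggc
HMMR, chr5:163460382-163460631, plus strand: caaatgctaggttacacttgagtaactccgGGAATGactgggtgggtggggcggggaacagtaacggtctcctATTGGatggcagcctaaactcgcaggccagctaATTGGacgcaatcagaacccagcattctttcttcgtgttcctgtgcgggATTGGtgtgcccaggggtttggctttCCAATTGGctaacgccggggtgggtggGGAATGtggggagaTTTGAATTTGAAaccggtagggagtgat
The KIAA1199 window held 1 match, TATAAA at positions -30 to -25 from the start, and 10.7% of 35116 RefSeq windows of this length hold that motif. The TMEM2 window held none of the 7 motifs. The HAS3 window held 1 CACGTG at positions -66 to -61, found in 6.34% of windows. HMMR differed from these, with 2 adjoining TTTGAA matches at -28 to -17, 5 CCAAT matches, 2 of which overlap each other, and 2 CATTCC matches on the reverse strand. TTTGAA occurs in 13.3% of windows, CCAAT in 32.0% and CATTCC in 11.9%. Among the windows not printed, TTTGAA also matched in HAS1 (-30 to -25). CATTCC also matched in HYAL2 (-38 to -33) and in the second HYAL3 window (-194 to -189). AP-1 (6.57% of windows) had no match in any of the 9 genes and kappaB (6.88%) 1, in the second HYAL3 window. GC content was 74.4% for KIAA1199, 71.6% for TMEM2, 66.0% for HAS3 and 53.6% for HMMR. A match is a stretch of letters, and binding was not measured.

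HMMR was also read beside other mitotic genes, since its RNA is known to peak in G2 and mitosis. Of 20 mitotic genes, all of which were tested, 5 were called higher, 6 lower and 9 not past the threshold, with a median log2 fold change of -0.07. These 11 of 20 are a smaller share than the 72.9% called over all genes tested (36.6% higher, 36.2% lower), a difference that was not tested. The range ran from -0.63 (NDC80, kinetochore) to 0.54 (ASPM, spindle pole), and HMMR at 0.92 was outside it. BUB1, a checkpoint kinase, rose from 81.5 ± 2.00 to 117 ± 1.91 CPM (edgeR adjusted p = 4.10e-07), while PLK1 fell from 367 ± 6.91 to 270 ± 7.12 CPM (edgeR adjusted p = 1.07e-06). The spindle partner of HMMR, TPX2, had a log2 fold change of 0.07 (SE 0.05, edgeR adjusted p = 0.235), and MKI67 one of -0.08 (SE 0.06, edgeR adjusted p = 0.21). Of the 17 mitotic genes with a RefSeq window, 10 held TTTGAA and 14 held CCAAT in at least 1 window. The shares given above are of single windows, so the gene counts cannot be set directly against them. Between 6 and 12 of the 20 were called when 1 library was left out, the 6 without NC siRNA replicate 3.

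Of 7 genes of UDP-sugar synthesis, 2 were called higher and 3 lower, with a median log2 fold change of -0.02. Over all genes tested, 36.6% were called higher and 36.2% lower with a median of 0.0014, so the count is near the background and is no result about precursor supply. GFPT1, the first enzyme of the hexosamine pathway, rose from 78.7 ± 4.21 to 119 ± 11.01 CPM (log2 fold change 0.60, SE 0.07, edgeR adjusted p = 1.14e-06), while its paralog GFPT2 fell from 49.4 ± 1.80 to 35.7 ± 4.10 CPM (edgeR adjusted p = 8.09e-05). UAP1, which makes UDP-N-acetylglucosamine, fell from 430 ± 7.65 to 308 ± 13.5 CPM (edgeR adjusted p = 6.16e-07). On the glucuronic acid branch UGP2 rose (log2 fold change 0.49, SE 0.07, edgeR adjusted p = 1.59e-05) and UGDH, which oxidises UDP-glucose to UDP-glucuronic acid, fell by 0.35 on the log2 scale (SE 0.07, edgeR adjusted p = 0.000195). GNPNAT1 (0.06, SE 0.07) and PGM3 (-0.02, SE 0.06) were not past the threshold, with edgeR adjusted p of 0.43 and 0.733.

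Later breakdown was read from lysosomal exoglycosidases. HEXA, a subunit of the enzyme that trims N-acetylhexosamines from the fragments, fell by 0.68 on the log2 scale (SE 0.07, edgeR adjusted p = 8.63e-08), from 80.8 ± 2.10 to 50.3 ± 3.05 CPM. GUSB, which removes glucuronic acid, rose from 35.1 ± 2.90 to 47.8 ± 4.75 CPM (log2 fold change 0.45, SE 0.09, edgeR adjusted p = 0.000202). The other hyaluronidase family genes HYAL4 and SPAM1 had 0 counts in all libraries.

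**Figure D4:**
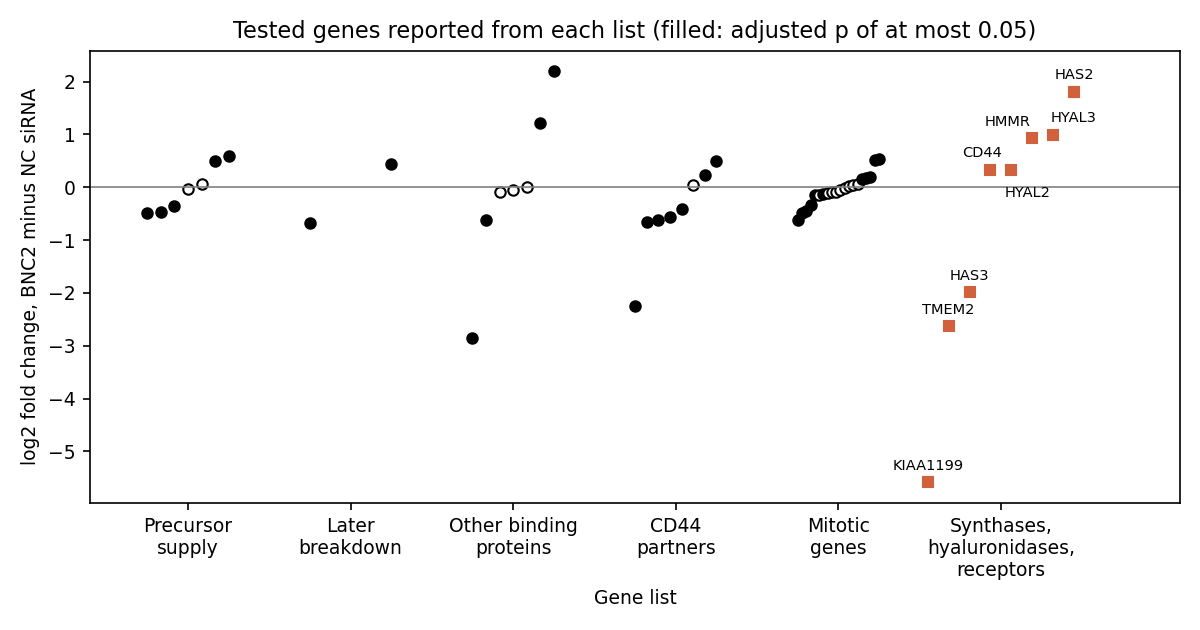
log2 fold change of the tested genes reported here from 5 lists (black circles, filled where past an adjusted p of 0.05) beside the 8 tested hyaluronan genes (orange squares). HMMR at 0.92 lies above all 20 mitotic genes, and KIAA1199 at -5.58 below every list gene drawn.

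Of 26 other hyaluronan-binding proteins, 7 passed the filter, of which 2 were called higher, 2 lower and 3 neither, against 72.9% called over all genes tested. VCAN (versican), a large proteoglycan that binds hyaluronan, rose from 2.76, 2.24 and 1.68 CPM to 10.2, 10.99 and 9.54 CPM (log2 fold change 2.20, SE 0.17, edgeR adjusted p = 5.14e-09). HABP4 rose too (1.21, SE 0.08, edgeR adjusted p = 7.06e-10), and is known mainly as an RNA-binding protein. LAYN (layilin), a membrane receptor, fell by 0.61 on the log2 scale (SE 0.07, edgeR adjusted p = 1.28e-06), and HAPLN3, a link protein, fell from 2.19, 1.85 and 3.01 CPM to 0.349, 0.0564 and 0.572 CPM (edgeR adjusted p = 1.11e-05). HAPLN3 passed the filter only through the control libraries, with 6, 1 and 9 counts after BNC2 siRNA, so its being tested depended on the control level and its call is not independent of the filter. SUSD5, PTX3 and C1QBP were not past the threshold (edgeR adjusted p of 0.216, 0.787 and 0.844). The median of the 7 was -0.04. LYVE1, the lymphatic receptor, and ACAN, ITIH2 and HABP2 had no count in any library.

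Among the partners of CD44, 8 of 11 were tested, of which 5 were called lower and 2 higher, with a median log2 fold change of -0.48. Over all genes tested, 72.9% were called, 36.6% higher and 36.2% lower, with a median of 0.0014. The difference of this list from those values was not tested. Of the linkers that tie the CD44 tail to actin, not all passed the threshold. MSN (moesin) fell from 735 ± 18.8 to 501 ± 13.5 CPM and RDX (radixin) from 281 ± 20.4 to 182 ± 5.69 CPM (edgeR adjusted p = 7.79e-08 and 1.01e-07), whereas EZR (ezrin) was at 284 ± 10.9 and 292 ± 11.5 CPM (edgeR adjusted p = 0.526). NF2 (merlin), which competes with them, fell by 0.42 on the log2 scale (SE 0.06, edgeR adjusted p = 2.15e-05). Of the proteases that cut CD44 from the surface, ADAM10 rose (0.50, SE 0.06, edgeR adjusted p = 1.57e-06), MMP14 rose (0.22, SE 0.05, edgeR adjusted p = 0.00106) and ADAM17 fell by 0.65 (SE 0.07, edgeR adjusted p = 3.78e-07). SRGN (serglycin), a CD44 ligand, was low at 1.34 to 2.76 CPM in control cells and 0.318 to 0.507 CPM in BNC2 siRNA (edgeR adjusted p = 4.04e-05). Like HAPLN3, SRGN was tested only because its control libraries passed the filter (7, 9 and 5 counts after BNC2 siRNA), and it is 1 of the 5 partners called lower. Of the splicing regulators of the CD44 variant exons, ESRP1 had no count and ESRP2 at most 1.30 CPM.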

How the data were processed

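RNA from BT549 cells was measured by stranded, poly(A)-selected, single-end RNA-seq in 3 NC siRNA and 3 BNC2 siRNA libraries. The values are raw gene counts deposited by the authors, made with STAR 2.6.1d (GeneCounts) on hg19 with iGenomes UCSC gene annotation. The series table equals the reverse-strand counts of the library tables in every gene. Between 37.7% and 41.1% of reads were assigned to no gene and left out. Libraries were grouped by the treatment label.

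From these counts, edgeR 4.0.16 (R 4.3.3) gave TMM-scaled CPM and quasi-likelihood tests for 12186 of 23346 genes, those above 1 CPM in 3 or more libraries, called at a Benjamini-Hochberg adjusted p of at most 0.05. The log2 fold change is BNC2 siRNA minus NC siRNA. The fit was tested on simulated data, and no result of that test is given here. The hyaluronan genes and the gene lists were chosen with earlier results of these data known. All hyaluronan genes were named, and tested list genes, genes overlapping a hyaluronan gene and the 5 genes most correlated with KIAA1199 could be named. Not all list and overlapping genes are named, and 1 list gene and 1 correlated gene are not reported here. Alternatives were other scalings (DESeq2 1.42.0 size factors, total counts), no filter or filterByExpr, the edgeR likelihood ratio test, which the methods name, the DESeq2 Wald test, unstranded counts, a replicate block and leaving out each library. Gene positions and lengths came from GENCODE 44 (GRCh37, 96.9% of tested genes matched), promoters from RefSeq and siRNAs from the study's table, where 1 antisense strand carries a repeated label and was matched to its sense strand by complementarity.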

Additional observations from a re-analysis of the deposited data

Results flagged for a closer look

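HAS3 had counts on the strand opposite to the gene, which the comparisons do not use. They came to 27.0, 26.3 and 25.3 CPM in the control libraries and 28.9, 29.6 and 30.8 CPM after BNC2 siRNA, a mean of 29.8 against 26.2. Sense HAS3 counts were 3.97-fold lower in the same libraries, and CHTF8, whose 3′ end lies across that of HAS3 on the opposite strand, was higher. When strand is ignored, reads in exons of both genes are counted for neither. NC siRNA replicate 1 then had 6408 HAS3 and 1246 CHTF8 counts, against 6357 and 1656 sense counts and 480 opposite-strand HAS3 counts. BNC2 siRNA replicate 1 had 1536 and 1524, against 1518 and 2000 sense counts and 498 opposite-strand HAS3 counts. The part of CHTF8 in the opposite-strand HAS3 reads was not tested.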

How the results depend on the processing

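All 112 values of the 8 tested hyaluronan genes under 14 alternatives kept their direction and stayed past the threshold, and the widest move of a log2 fold change was 0.123 (KIAA1199, -5.71 to -5.47). The alternatives reuse the counts on which these genes were selected, so this describes the processing and is no support for the differences. Between 8084 and 9662 of all genes were called. Without a filter or with filterByExpr, 4 rather than 3 hyaluronan genes were called lower, because HYAL1 entered the test. It passed filterByExpr only through its control libraries (10, 18 and 10 counts, against 5, 7 and 1 after BNC2 siRNA). That call is not independent of the filter and rests on few counts. Scaling by total counts moved the median of all genes to -0.07. Depth limits HYAL1 and HAS1.

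The number of mitotic genes called was 11, and it was 6 to 12 when 1 library was left out, with 6 without NC siRNA replicate 3; the cause was not tested. With a replicate block it was 7, and the other lists and the hyaluronan genes kept their counts within 1.5 times. No pairing by replicate number was seen, since same-numbered deviations correlated at -0.21, -0.08 and -0.13 and no library correlated best with its own number. With 3 libraries a group, this cannot settle whether same-numbered libraries were prepared together.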
